A study of Mus musculus with 8 samples.

Results

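The interferon-stimulated genes and nucleic acid sensors described here are 41 genes listed by name and found on the arrays by the gene name of each probe. All 41 were on the array, with 58 probes between them, out of 19965 genes that had a RefSeq probe. Each gene was followed by its brightest RefSeq probe, and the other probes are given where they differed from it in sign, and for some further genes. By role they were 6 nucleic acid sensors, 2 interferon receptor chains, 5 transcription factors, 3 genes of ISG15 conjugation and its control, 8 double-stranded RNA activated enzymes, 12 antiviral effectors and 5 interferon-inducible GTPases.

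Cells recognise viral or misplaced nucleic acids with sensors in the cytosol and in endosomes, which switch on type I interferon genes through the transcription factors Irf3 and Irf7. Secreted interferon binds the receptor chains Ifnar1 and Ifnar2 and activates a complex that holds Stat2 and Irf9 and binds the interferon-stimulated response element (ISRE) in the promoters of the genes that make the antiviral state. Interferon gamma acts through another receptor and the gamma-activated site (GAS), and drives Irf1 and the immunity-related GTPases. DNA that leaks from a damaged nucleus or mitochondrion can engage the same pathway through cGAS and STING, and irradiated tissues are one place where it has been studied.

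The thyroids came from female Balb/c mice of 8 weeks of age. In 4 mice the gland was exposed to an absorbed dose of 30 Gy by 99mTcO4-, the pertechnetate anion that thyrocytes take up through the sodium-iodide symporter (samples S539, S588, S589 and S590), and 4 control mice received no radioisotope. The study calls the control thyroids untreated in its results and names saline administration in a figure legend. Total RNA of the whole gland was taken 24 hours after administration, labelled with Cy3 and hybridised to 1 Agilent array a mouse, so the values average thyrocytes with stroma, vessels, blood cells and whatever neighbouring tissue was dissected. The labels give no source beyond the mouse, and the spread between mice is the only error available. Values are log2 processed signals, quantile-normalised over the 8 arrays. They are given in the order control 1, 2, 3 and 4, then S539, S588, S589 and S590, and a difference is the exposed minus the control mean. Levels of different probes were not compared with each other, since probes differ in brightness.

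Between 60.5% and 77.3% of the spots of an array were well above background. The thyroglobulin gene Tg lay between 18.70 and 19.07 on every array. The exposure was visible in Cdkn1a, the p53 target that encodes p21, with a difference of 3.83 (limma, adjusted p = 0.0032), and in the iodide transporter gene Slc5a5 with -3.53 (adjusted p = 0.0137). Some arrays stood apart in markers of other cells. The thymocyte gene Rag1 was at 11.96, 10.64, 2.89 and 2.92 in the control thyroids and 5.45, 2.80, 2.84 and 2.86 in the exposed thyroids, so it was high on controls 1 and 2 and, to a smaller extent, on S539. The neutrophil gene S100a8 was at 5.84, 7.67, 7.78 and 7.62 in the control thyroids and 8.67, 13.35, 6.47 and 6.41 in the exposed thyroids, with S588 above the rest. By their array numbers the exposed samples took the first 4 positions of the slide and the controls the other 4, so position and exposure cannot be told apart.

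The promoters show what many members share beyond their names. RefSeq promoter sequences (build GRCm38.p6) were found for 31 of the 41 members. The letters GAAANNGAAA, the core of the ISRE, or their reverse complement TTTCNNTTTC, stood in the 250 bases before the start of 13 of these 31 members (41.9%), against 3.46% of the 27025 genes with a promoter. The letters TTCNNNGAA of the GAS, which read the same on both strands, stood before the start of 7 of the 31 members (22.6%) and of 8.13% of all genes. These matches are a description of the letters and not of binding. The 150 bases before the start, written 5′ to 3′, are shown for 6 members on which the results turn: Isg15 and Ifit1, canonical members whose means differed little, Bst2, Igtp and Irf1, with the lowest unadjusted p-values beside Irf3 and Oas2, and Irf3, which lacks both motifs. Capitals mark the ISRE letters on either strand, and in Irf1, which has no ISRE match, the GAS letters.
Isg15: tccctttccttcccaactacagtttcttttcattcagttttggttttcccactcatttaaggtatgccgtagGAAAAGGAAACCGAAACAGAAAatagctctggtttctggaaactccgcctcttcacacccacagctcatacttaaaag
Ifit1: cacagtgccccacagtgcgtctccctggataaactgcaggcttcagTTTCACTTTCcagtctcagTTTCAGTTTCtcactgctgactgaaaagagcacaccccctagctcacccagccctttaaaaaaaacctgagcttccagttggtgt
Bst2: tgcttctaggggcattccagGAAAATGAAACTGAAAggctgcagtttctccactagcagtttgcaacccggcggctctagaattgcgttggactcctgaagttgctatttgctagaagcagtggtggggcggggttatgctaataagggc
Igtp: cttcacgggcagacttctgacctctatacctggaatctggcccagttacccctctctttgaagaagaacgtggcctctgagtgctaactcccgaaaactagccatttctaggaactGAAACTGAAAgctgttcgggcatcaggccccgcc
Irf1: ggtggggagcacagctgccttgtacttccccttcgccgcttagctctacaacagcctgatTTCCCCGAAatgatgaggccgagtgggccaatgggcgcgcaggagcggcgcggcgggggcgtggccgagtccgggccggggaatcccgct
Irf3: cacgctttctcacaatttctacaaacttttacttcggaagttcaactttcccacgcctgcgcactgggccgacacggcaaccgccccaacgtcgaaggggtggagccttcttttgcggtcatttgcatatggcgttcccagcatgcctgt

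The Isg15 stretch is chr4:156200819-156200968 on the minus strand, that of Ifit1 chr19:34640739-34640888 on the plus strand and that of Bst2 chr8:71537473-71537622 on the minus strand. The Igtp stretch is chr11:58199406-58199555 on the plus strand, that of Irf1 chr11:53769864-53770013 on the plus strand and that of Irf3 chr7:44997498-44997647 on the plus strand. There are 3 overlapping ISRE matches before Isg15, and Ifit1 and Bst2 have 2 each. Igtp has 1 ISRE match close to its start.

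No member differed between exposed and control thyroids at an adjusted p of 0.05. By limma with Benjamini-Hochberg adjustment over 55681 probes, 0 of the 41 genes were higher and 0 lower, and 0 of their 58 probes passed, the lowest adjusted p of any being 0.226. Of all 19965 genes, 0.917% were called higher and 0.306% lower, 1.22% in either direction. The counts that follow are by the brightest probe of each gene. Without adjustment, 3 members had a p under 0.05 with a higher mean in the exposed thyroids (Irf3, Oas2 and Bst2), where 6.53% of all genes did. There were 2 with a lower mean (Irf1 and Igtp), where 8.34% of all genes had one. All 4 exposed arrays lay above all 4 control arrays in Irf3 alone, a pattern of 5.52% of all genes. They lay below them in Igtp alone, a pattern of 6.4% of all genes. The methods' t-test on the same values gave the same 5 genes at its own threshold without adjustment and 0 genes after it. The shares of members were 7.32%, 4.88%, 2.44% and 2.44%, near those of all genes or under them.

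The differences were small. The median difference over the 41 members was -0.04, and over all genes it was -0.03. By their brightest probes the members ranged from -0.77 (Tlr3) to 0.58 (Oas2), so none differed by 2-fold in those means. A second RefSeq probe of Tlr7 did, with a difference of -1.58 that was not called. By brightest probes 25 members were negative and 16 positive, and of all genes 10769 were negative and 9196 positive. For 28 of the 41 members (68.3%) the 95% interval of the difference excluded a 2-fold change in either direction, against 59.9% of all genes. The median interval reached 0.53 to each side, for the members as for all genes. The remaining members could hide a change of 2-fold in at least 1 direction, and a p that misses the threshold does not show equal levels. In whole tissue fewer cells of a type and less RNA per cell cannot be told apart.

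**Figure D1:**
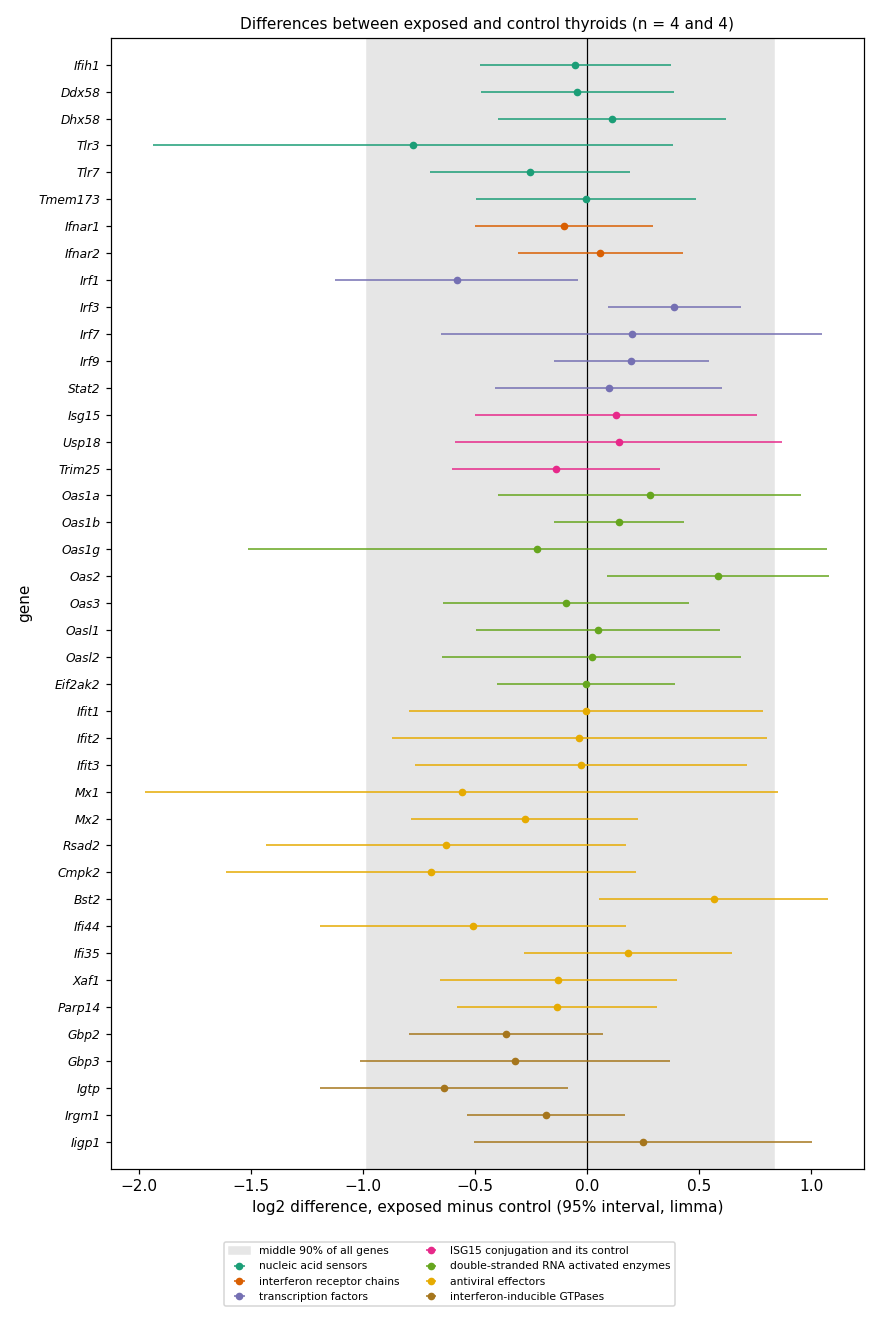
Difference in log2 signal between exposed and control thyroids for the 41 members, ordered and coloured by role. Points are differences of means (n = 4 and 4), bars the 95% intervals from limma, and the grey band spans the middle 90% of all 19965 genes, from -0.98 to 0.83, within which all 41 points lie.

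Of the 6 sensors, 0 were called. In 5 the difference was negative and in 1 positive, with a median of -0.05. Ifih1, which encodes the double-stranded RNA sensor MDA5, had signals of 9.98, 10.40, 10.62 and 10.45 in the control thyroids and 10.23, 10.06, 10.53 and 10.41 in the exposed thyroids. The groups overlapped almost fully and the difference was -0.05 (95% interval -0.48 to 0.37). A much dimmer second Ifih1 probe was at 0.42 with an interval of -0.85 to 1.69, the opposite sign. Ddx58 encodes RIG-I, the sensor of uncapped RNA ends, and its signals were 11.47, 11.70, 11.77 and 11.25 in the control thyroids and 11.54, 11.22, 11.82 and 11.45 in the exposed thyroids. The difference was -0.04 (95% interval -0.47 to 0.39), and the exposed values spanned a slightly wider range than the controls. A dimmer Ddx58 probe on the same transcript read 7.34, 7.68, 7.84 and 7.504 in the control thyroids and 7.10, 6.42, 7.19 and 7.07 in the exposed thyroids. There every exposed array was under every control array, with a difference of -0.65 (95% interval -1.14 to -0.16) at an unadjusted p of 0.0158 and an adjusted p of 0.283, so the probes of this gene do not give the same picture. Dhx58, the regulator LGP2 of these helicases, differed by 0.11 (95% interval -0.40 to 0.62).

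Tlr3, the endosomal receptor for double-stranded RNA, varied most among mice of all the sensors, at 6.31, 7.66, 8.17 and 8.55 in the control thyroids and 6.53, 6.37, 7.18 and 7.51 in the exposed thyroids. Control 1 was the lowest of all arrays, and the exposed values fell inside the control range. Its difference was -0.77 (95% interval -1.93 to 0.38) at an adjusted p of 0.56, the widest interval among the brightest probes of the sensors. Without control 1 the difference had an unadjusted p under 0.05 but was not called. Tlr7, the receptor for single-stranded RNA that plasmacytoid dendritic cells use, had a difference of -0.25 (95% interval -0.70 to 0.19) by its brightest probe. A second RefSeq probe of Tlr7 read 5.69, 7.11, 6.91 and 7.27 in the control thyroids and 4.62, 4.46, 5.67 and 5.91 in the exposed thyroids, with a difference of -1.58 (95% interval -2.65 to -0.51), an unadjusted p of 0.00926 and an adjusted p of 0.226. That probe was well above background on 4 control arrays and on 2 exposed arrays, and the values of the groups overlapped through control 1. Tmem173, the STING adaptor that carries the signal of cGAS, had 11.14, 11.03, 10.57 and 10.53 in the control thyroids and 11.14, 10.49, 10.91 and 10.72 in the exposed thyroids. The difference was -0.01 (95% interval -0.50 to 0.49), among the closest to 0 in the module. The cGAS gene Mb21d1, listed on the array as E330016A19Rik, differed by 0.15 (95% interval -0.20 to 0.51) and Mavs, the mitochondrial adaptor of RIG-I and MDA5, by -0.12 (95% interval -0.44 to 0.19).

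The receptor chains differed little. Ifnar1 had 10.36, 10.65, 10.93 and 10.63 in the control thyroids and 10.67, 10.36, 10.75 and 10.38 in the exposed thyroids, with a difference of -0.10 (95% interval -0.50 to 0.30). Its other 2 probes read -0.57 and 0.08, on both sides of 0. Ifnar2 had 12.50, 12.83, 12.80 and 12.31 in the control thyroids and 12.68, 12.71, 12.75 and 12.53 in the exposed thyroids, with a difference of 0.06 (95% interval -0.31 to 0.43). The intervals of both brightest probes exclude a change of 2-fold. The interferon gamma receptor gene Ifngr1, outside the module, differed by -0.12 (95% interval -0.47 to 0.23).

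The transcription factors held the most orderly difference of the module and one in the opposite direction. Irf3, which is present before infection and is activated by phosphorylation, had 13.92, 14.03, 13.94 and 13.80 in the control thyroids and 14.47, 14.31, 14.26 and 14.19 in the exposed thyroids (probe at chr7:52257700-52257759, plus strand, mm9). All exposed values were above all control values, with means of 13.92 ± 0.10 and 14.31 ± 0.12 (SD, n = 4), a difference of 0.39 (95% interval 0.09 to 0.68), 1.31-fold. The unadjusted p was 0.0162 and the adjusted p 0.284. Irf1, which interferon gamma induces, had 12.88, 13.14, 13.05 and 12.74 in the control thyroids and 12.95, 11.90, 12.43 and 12.21 in the exposed thyroids (probe at chr11:53590746-53590805, plus strand, mm9). Here 3 of the 4 exposed thyroids were under all controls, and S539 was among the controls. The difference was -0.58 (95% interval -1.12 to -0.04), which is 1.5-fold lower in the exposed, at an unadjusted p of 0.0386 and an adjusted p of 0.38. A second Irf1 probe, for another transcript, was well above background on 3 of 8 arrays and read 0.54, with an interval of -0.85 to 1.94.

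Irf7, the interferon-induced factor that amplifies the response, had 7.42, 8.27, 8.82 and 8.34 in the control thyroids and 8.81, 7.60, 8.66 and 8.57 in the exposed thyroids. Control 1 and S588 were the lowest of their groups, and the difference was 0.20 (95% interval -0.65 to 1.05). Irf9, the DNA-binding part of the complex that interferon alpha and beta activate, differed by 0.20 (95% interval -0.15 to 0.55). Stat2, its partner, differed by 0.10 (95% interval -0.41 to 0.60).

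ISG15 is a ubiquitin-like protein that is both secreted and attached to other proteins, and its gene is among the most responsive to type I interferon. Isg15 had 11.50, 11.86, 11.85 and 11.46 in the control thyroids and 12.10, 11.11, 12.30 and 11.68 in the exposed thyroids (probe at chr4:155573649-155573708, minus strand, mm9). The exposed thyroids held both the lowest and the highest value of the 8, S588 and S589, and spanned the whole control range. The means were 11.67 ± 0.21 and 11.80 ± 0.53 (SD, n = 4), a difference of 0.13 (95% interval -0.50 to 0.76), so an increase beyond 1.69-fold lies outside the interval. Usp18, the protease that removes ISG15 and blocks the receptor, had 8.43, 9.15, 9.11 and 8.73 in the control thyroids and 9.41, 8.17, 9.42 and 8.998 in the exposed thyroids, with S588 the lowest again. Its difference was 0.14 (95% interval -0.59 to 0.87). Trim25, the ligase that acts on RIG-I and is itself a target of ISG15, differed by -0.14 (95% interval -0.60 to 0.33).

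The enzymes that double-stranded RNA switches on had a median difference of 0.03, with 5 positive and 3 negative. Oas2, which makes the 2-5A messenger that activates RNase L, had 9.37, 9.61, 9.80 and 9.93 in the control thyroids and 10.53, 9.79, 10.51 and 10.22 in the exposed thyroids (probe at chr5:121180343-121180402, minus strand, mm9). The highest values were those of S539 and S589, and S588 lay within the control range. The difference was 0.58 (95% interval 0.09 to 1.08), 1.5-fold, the largest positive one of the module, at an unadjusted p of 0.0266 and an adjusted p of 0.34. Oas1a, another synthetase, had 11.59, 12.20, 12.13 and 11.38 in the control thyroids and 12.38, 11.64, 12.61 and 11.79 in the exposed thyroids, with a difference of 0.28 (95% interval -0.40 to 0.96). S539 and S589 were its highest arrays as well. Oas1b, which carries a premature stop in most laboratory strains, differed by 0.14 (95% interval -0.15 to 0.43). S588 was the highest array for Oas1b, unlike for most members.

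The related Oasl1 and Oasl2, which lack synthetase activity or act apart from RNase L, differed by 0.05 and 0.02. In both, S588 was the lowest array of all 8. Eif2ak2, the kinase PKR that halts translation, had 9.66, 10.15, 10.12 and 9.91 in the control thyroids and 10.06, 9.70, 10.17 and 9.90 in the exposed thyroids. Its difference was -0.004 (95% interval -0.40 to 0.39), and the groups overlapped throughout. Oas3 was well above background on 1 control and 3 exposed arrays and Oas1g on 1 control array and no exposed array, so their differences of -0.09 and -0.22 are of signals close to background. The second probe of Oas1g read 0.32, the opposite sign, and was above background on 1 array.

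The antiviral effectors made up the largest role, with 10 negative and 2 positive differences and a median of -0.13. The Ifit genes lie side by side on chromosome 19 and encode proteins that bind foreign RNA ends. Ifit1 had 8.31, 9.18, 9.11 and 9.05 in the control thyroids and 9.11, 8.00, 9.38 and 9.14 in the exposed thyroids (probe at chr19:34723796-34723855, plus strand, mm9). Its means of 8.91 ± 0.41 and 8.91 ± 0.62 (SD, n = 4) were alike, with a difference of -0.01 (95% interval -0.80 to 0.78), while control 1 and S588 were well under the 6 other arrays. Ifit2 had 7.56, 8.57, 8.76 and 8.63 in the control thyroids and 8.72, 7.51, 8.62 and 8.53 in the exposed thyroids. The same 2 arrays were the lowest, about 1 log2 unit under the others, and the difference was -0.04 (95% interval -0.87 to 0.80). Ifit3 had 9.87, 9.92, 9.95 and 9.86 in the control thyroids and 10.10, 8.85, 10.30 and 10.23 in the exposed thyroids. There the controls lay within 0.1 of each other, the other 3 exposed arrays were above all controls and S588 was more than 1 log2 unit under them, giving a difference of -0.03 (95% interval -0.77 to 0.71). Without S588 the differences of Ifit1, Ifit2 and Ifit3 were 0.30, 0.25 and 0.31, with Ifit3 at an unadjusted p under 0.05 and none called.

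Bst2, the tetherin that holds budding virions to the cell surface, was the effector with the largest positive difference. It had 11.66, 11.85, 11.74 and 11.32 in the control thyroids and 12.60, 11.79, 12.44 and 11.99 in the exposed thyroids (probe at chr8:74058603-74058662, minus strand, mm9). Of the exposed values, 3 were above all controls and S588 was just inside the control range. The difference was 0.56 (95% interval 0.05 to 1.07), 1.48-fold, at an unadjusted p of 0.0343 and an adjusted p of 0.368.

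The neighbouring genes Rsad2 and Cmpk2 lay on the other side. Rsad2 encodes viperin, which makes a chain-terminating nucleotide, and Cmpk2 the mitochondrial kinase that supplies its precursor. Rsad2 had 8.82, 9.997, 10.37 and 9.75 in the control thyroids and 8.99, 8.66, 9.50 and 9.29 in the exposed thyroids, and Cmpk2 had 7.45, 8.75, 9.09 and 8.43 in the control thyroids and 8.14, 7.01, 8.02 and 7.77 in the exposed thyroids. By these brightest probes, controls 2, 3 and 4 were above all exposed arrays in both genes, and control 1 was among the exposed. The differences were -0.63 (95% interval -1.43 to 0.18) and -0.70 (95% interval -1.61 to 0.22), at adjusted p-values of 0.504 and 0.513. Without control 1 both reached an unadjusted p under 0.05 and neither was called. A dimmer second Cmpk2 probe read 7.00, 6.71, 6.64 and 5.92 in the control thyroids and 6.40, 6.57, 6.01 and 6.04 in the exposed thyroids. There control 1 was the highest of all arrays and control 4 the lowest, with a difference of -0.31 (95% interval -0.91 to 0.28), so the low control 1 was not seen with that probe.

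Mx1, which in most laboratory strains carries an internal deletion, had 5.21, 7.18, 6.89 and 6.75 in the control thyroids and 6.90, 4.46, 6.11 and 6.33 in the exposed thyroids. S588, the lowest, was not well above background, and the difference was -0.56 (95% interval -1.97 to 0.85). Mx2 differed by -0.28 (95% interval -0.78 to 0.23). Ifi44 had a difference of -0.51 (95% interval -1.19 to 0.17), with control 1 the lowest control and S588 the lowest of all. Ifi35, a partner of Nmi, differed by 0.18 (95% interval -0.28 to 0.65). Xaf1, a pro-apoptotic interferon target, differed by -0.13 (95% interval -0.66 to 0.40), and the mono-ADP-ribosyltransferase gene Parp14 by -0.13 (95% interval -0.58 to 0.31).

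**Figure D2:**
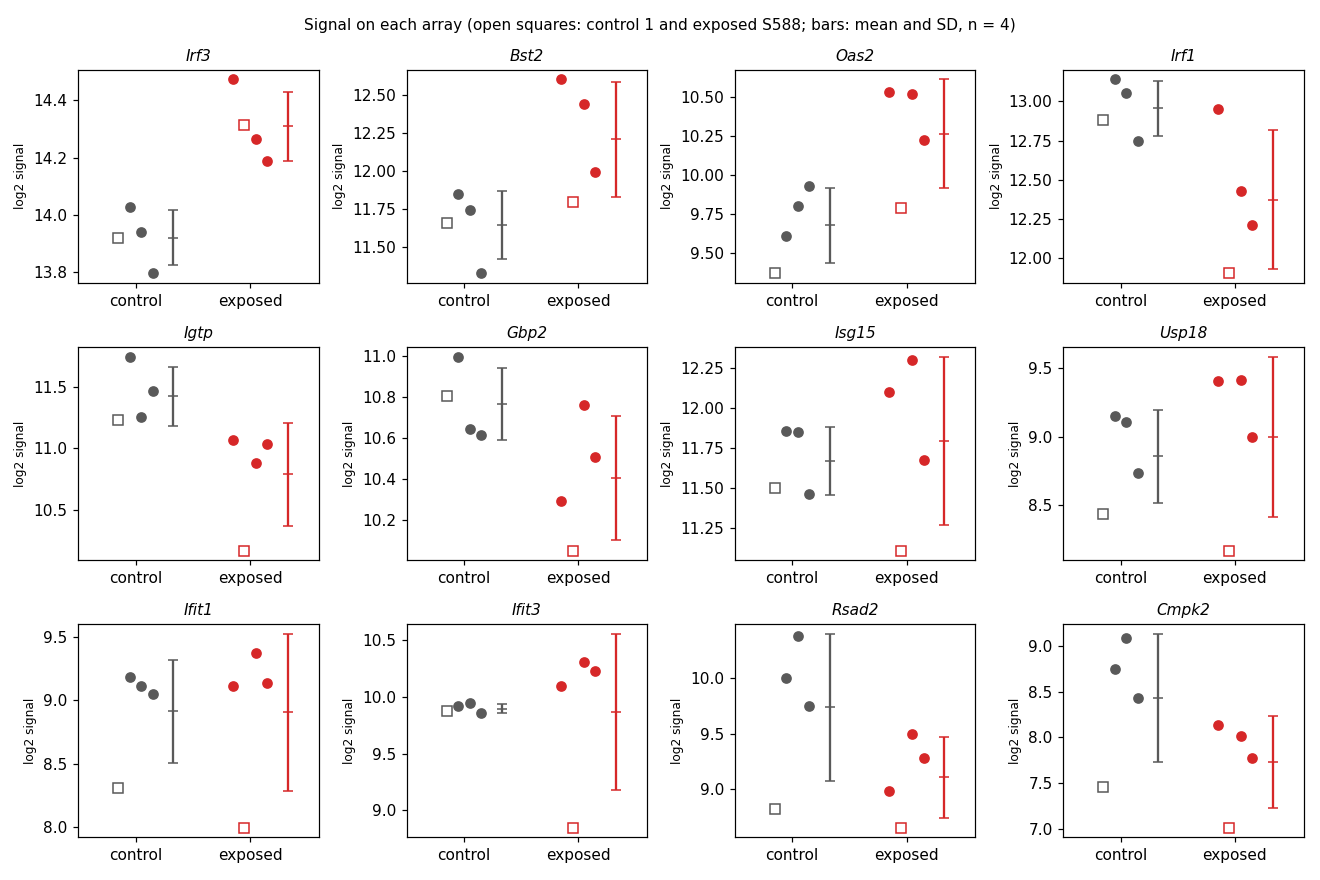
Log2 signal of 12 members on each array, with the mean and SD of each group (n = 4) beside the points. Open squares are control 1 and exposed S588, the lowest arrays of their groups in, among others, Oas2, Usp18, Ifit1, Rsad2 and Cmpk2, and each panel has its own axis, which does not start at 0.

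The interferon-inducible GTPases attack the vacuoles of intracellular pathogens, and interferon gamma is their main inducer. Of the 5, 4 had negative differences, with a median of -0.32. Igtp had 11.23, 11.75, 11.26 and 11.47 in the control thyroids and 11.07, 10.17, 10.88 and 11.04 in the exposed thyroids (probe at chr11:58020927-58020986, plus strand, mm9). All exposed values were under all control values, S588 by the most. The means were 11.43 ± 0.24 and 10.79 ± 0.42 (SD, n = 4), a difference of -0.64 (95% interval -1.19 to -0.08) that corresponds to a 1.56-fold lower mean, at an unadjusted p of 0.0289 and an adjusted p of 0.349. Gbp2, a guanylate-binding protein gene, had 10.81, 10.995, 10.64 and 10.61 in the control thyroids and 10.29, 10.05, 10.76 and 10.51 in the exposed thyroids. The exposed thyroids S539, S588 and S590 were under all controls and S589 was within them, with a difference of -0.36 (95% interval -0.80 to 0.07). Gbp3 differed by -0.32 (95% interval -1.01 to 0.37) and Irgm1, which regulates the other GTPases, by -0.18 (95% interval -0.53 to 0.17). The probes of Iigp1 went in opposite directions. The brighter read 0.25, with S588 the highest array, and the dimmer -0.49, with S588 the lowest, so no direction can be given for this gene.

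**Figure D3:**
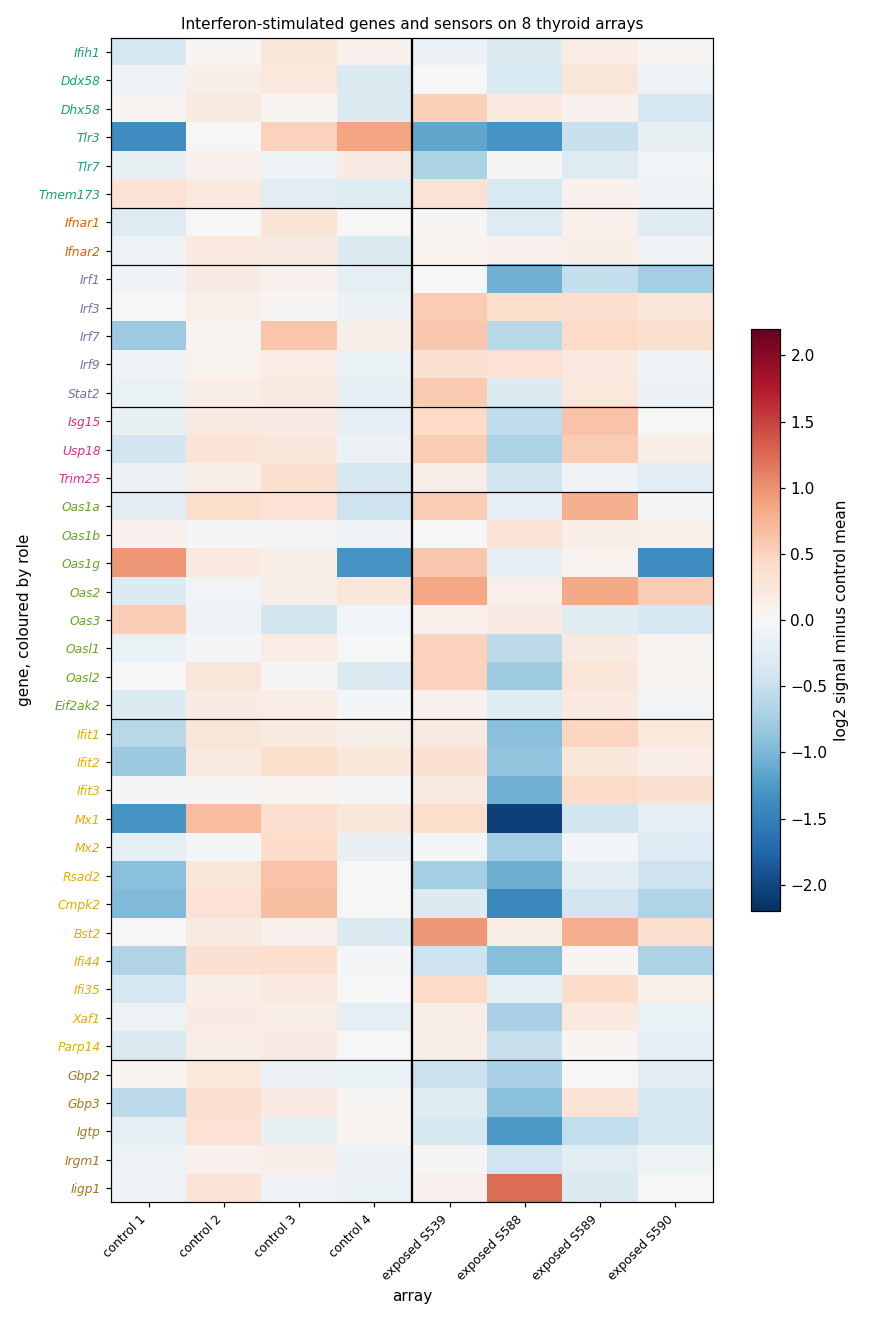
Log2 signal of each member on each array minus the mean of the 4 control arrays for that gene, with the genes grouped by role. Blue cells are lower and red cells higher than the control mean, and the columns of control 1 and exposed S588 hold many of the dark blue cells.

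In 29 of the 41 members (70.7%) the difference between the groups was smaller than the SD between mice of a group, as in 61.6% of all genes. S588 was the lowest of the 4 exposed arrays in 32 of the 41 members (78.0%), against 43.3% of the 14532 genes that were well above background on every array. The median member was 0.41 log2 units under its group mean on S588, and the median of those genes 0.09 under it. The exceptions included Irf3, Irf9 and Oas1b. Among the controls, control 1 and control 4 were each the lowest in 20 members (48.8%), against 44.3% and 25.8% of detected genes. On control 1 the median member was 0.16 under its group mean and the median detected gene 0.10 under it. On control 4 the median member was 0.08 under its group mean and the median detected gene 0.001 above it. Control 2 was the lowest control in 0 members and control 3 in 1. Both control 1 and S588 were the lowest of their groups in 19 members (46.3%), against 24.4% of detected genes. By their brightest probes, those 19 held the sensors Ifih1 and Tlr3, the factor Irf7, Usp18, Ifit1, Ifit2, Mx1, Mx2, Rsad2, Cmpk2, Ifi44, Gbp3 and Igtp.

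These arrays also differed in other markers, and in different ones. S588 had the highest neutrophil markers, at 4.05, 3.19, 3.18 and 3.35 in the control thyroids and 3.03, 11.14, 4.38 and 2.98 in the exposed thyroids for Mmp8, a protease of neutrophil granules, and 4 of the 5 listed markers were on the array, with a mean centred level of 4.68 on S588 against -1.39 to 0.29 on the other arrays. Control 1 had the highest mean centred level of the thymocyte markers, 3.16 over 7 genes. Not all 7 followed it: Cd1d1 was at 11.75 on control 1, its lowest control, and Themis at 6.50 on control 1 and 4.69 on control 2. Control 2, whose level was 2.36, was not low in the interferon-stimulated genes. The part of these cells in the levels of the members was not tested. Without S588 the median difference of the members was 0.05, and without control 1 it was -0.07, with 0 members called in either direction in both cases. With controls 1 and 2 left out together it was -0.06, again with 0 members called.

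**Figure D4:**
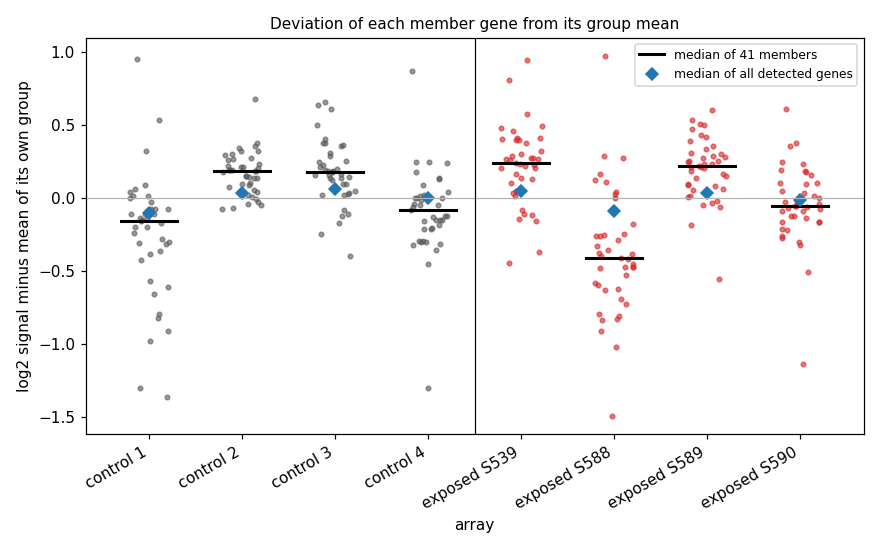
Deviation of each of the 41 members from the mean of its own group on each array, in log2 units. Dots are genes, black bars the medians of the members and blue diamonds the medians of the 14532 genes detected on all arrays, and on S588 the members lie further under 0 than the other genes do.

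The other genes of the pathway were tested as lists. Of the interferon ligands, 15 of 21 listed were on the array, and 0 were called in either direction by limma or by the methods' t-test, with 2 higher (13.3%) and 1 lower (6.67%) at an unadjusted p under 0.05, against 6.53% and 8.34% of all genes. Ifnb1, the ligand that sensors induce first, was well above background on 1 of 8 arrays, at 4.95, 3.09, 3.09 and 3.58 in the control thyroids and 3.08, 3.35, 3.21 and 3.099 in the exposed thyroids. Ifng, the ligand that drives the GTPases, was above background on 3 control arrays and 1 exposed array, at 5.68, 5.98, 6.02 and 5.67 in the control thyroids and 4.46, 5.78, 5.00 and 4.88 in the exposed thyroids. Its difference was -0.81 at an adjusted p of 0.307, with 1 exposed array, S588, among the controls. Among 35 genes of receptors and signalling, 1 was called lower and 0 higher, where 0.306% of all genes were called lower and 0.917% higher, with a median difference of -0.10. At an unadjusted p under 0.05, 7 of the 35 were lower (20%) and 1 higher (2.86%), against 8.34% and 6.53% of all genes. All exposed arrays lay below all controls in 6 (17.1%), against 6.4% of all genes, and above them in 1 (2.86%), against 5.52%. The called gene was Socs1, the inhibitor of Janus kinases that interferon gamma induces as a brake on itself. Socs1 had 11.19, 10.97, 10.41 and 10.57 in the control thyroids and 9.04, 7.78, 8.08 and 8.46 in the exposed thyroids, with the exposed values under all controls. The difference was -2.45 (95% interval -3.15 to -1.74), 5.45-fold lower, at an adjusted p of 0.0175. The sign and size of the Socs1 difference held without any 1 array, at -2.68 to -2.29, but the adjusted p was 0.0694 without control 2, 0.0722 without S589 and 0.0637 without S590. It was 0.0527 by the methods' t-test and 0.135 without controls 1 and 2 together.

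The 59 further interferon-stimulated genes on the array, of 62 listed, had a median difference of -0.22, with 0 called in either direction by limma and by the methods' t-test, and 1, Pml, called higher under 4 of the 18 alternatives. At an unadjusted p under 0.05, 5 were higher and 9 lower, 8.47% and 15.3% of the list against 6.53% and 8.34% of all genes. Cxcl10, a chemokine of T cells and a target of both interferons, had 9.36, 10.18, 9.10 and 9.05 in the control thyroids and 7.94, 6.65, 8.46 and 8.26 in the exposed thyroids. All exposed values were under all control values, with a difference of -1.60 (95% interval -2.61 to -0.58), an unadjusted p of 0.00668 and an adjusted p of 0.197. Leukocyte markers were lower on average in the exposed thyroids as well. The 6 markers had a median difference of -1.51 with 0 called, and Ptprc, which encodes CD45, was at 10.22, 9.53, 7.81 and 7.65 in the control thyroids and 7.03, 7.15, 6.99 and 7.04 in the exposed thyroids, the highest being controls 1 and 2. Of the 7 dendritic cell markers, all had negative differences and 1 was called lower, where 0.306% of all genes were. They did not agree closely. Xcr1, at -0.05, was not well above background on any array, Zbtb46 differed by -0.22, and Flt3 was highest on exposed S588, at 8.62. The called gene, Clec9a, was not well above background on any exposed array (limma, adjusted p = 0.00746, and 0.0518 without controls 1 and 2). Its control mean was 4.93-fold higher with exposed signals raised to the lowest signal well above background on their arrays. That bound takes no account of the spread between mice. The difference was -2.92 with the main processing, -1.15 with the deposited values and -1.09 with normexp correction. In other immune lists, differences were negative in 6 of 6 T cell, 4 of 4 B cell, 7 of 9 macrophage and 5 of 7 thymocyte markers. They were negative in 4 of 7 plasmacytoid dendritic cell, 3 of 5 NK cell and 0 of 4 neutrophil markers. The part of these cells in the values of Socs1, Cxcl10, Igtp and Irf1 was not tested.

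**Figure D5:**
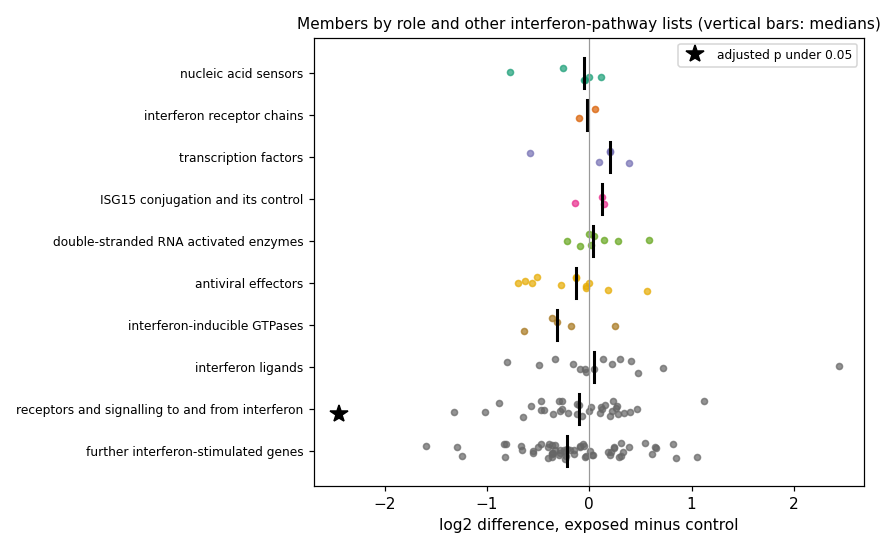
Difference in log2 signal, exposed minus control, for the members by role and for 3 further lists of the interferon pathway. Each dot is a gene, vertical bars are list medians, and the star is Socs1, the only gene plotted with an adjusted p under 0.05.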

How the data were processed

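RNA of 8 mouse thyroids, 4 control and 4 exposed, was measured on 1-colour Agilent arrays of 1 slide. The deposited scanner files hold intensity values made by the authors with Feature Extraction 10.7.3.1, background-subtracted, with probe positions on mm9. The deposited value table holds the authors' log2 values after quantile normalisation in limma, and was used as an alternative. Here the processed intensity of 59305 non-control spots was put on a log2 scale and quantile-normalised, and spots of a probe were averaged to 55681 probes. Groups were compared with limma 3.58.1 in R 4.3.3 (lmFit, eBayes, two-sided, Benjamini-Hochberg over all probes, threshold 0.05). The study's methods name limma for normalisation, a B-test and an adjusted p of 0.05, and do not name the adjustment. A gene was represented by its RefSeq probe of highest mean signal (19965 genes). Every member is named, as are genes of the other lists past the threshold and some listed by name, of which 1 is not reported here. The members and lists were chosen with earlier results of these data known. The fit was tested on simulated data. Alternatives covered scaling, background, filters, the methods' t-test, the variance trend, the mean of all probes and leaving out each array. That t-test is the Student's t-test that the study names for dual comparisons in general, while for its arrays it names the B-test. The number of arrays, 4 in a group, limits the precision.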

Additional observations from a re-analysis of the deposited data

Results flagged for a closer look

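In groups of 4 mice, 4 of 82 combinations of member and group held an array far from the other 3, where chance alone flags about 1 in 20, or 4.1 here. Ifit1 was at 8.31 on control 1, with the other controls between 9.05 and 9.18. Ifit2 was at 7.56 on control 1, with the other controls between 8.57 and 8.76. Ifit2 was also far from the rest on exposed S588, at 7.51 against 8.53 to 8.72. Ifit3 was at 8.85 on exposed S588, against 10.10 to 10.30 on the other exposed arrays.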

How the results depend on the processing

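The counts of member genes called higher and lower were 0 under all 18 alternatives, of which 8 left out 1 array each and 1 was chosen after seeing the data (controls 1 and 2 left out together). The lowest adjusted p of any member under them was 0.10, with the deposited values. At an unadjusted p under 0.05 the number of members ranged from 1 to 4 higher and 0 to 5 lower. Irf3 was among them under every alternative, and Igtp was not when control 2, control 4 or both controls with thymocyte markers were left out. The median difference of the members ranged from -0.13 to 0.05 when single arrays were left out and from -0.06 to -0.01 otherwise, within 0.25, the SD between mice of the mean member level. Of 736 member values under the alternatives, 732 moved by less than 1 SD between replicates and 4 by more, 3 of these with the mean of all probes of a gene and 1 with scaling to the 75th percentile. That scaling moved the median of all probes from 0.01 to 0.16, and the members' median to -0.01, and 4 members changed sign under it (Oas1g, Oas3, Ifit1 and Ifit2). Leaving out S588 changed the sign of 9 members (Ifih1, Ddx58, Tmem173, Eif2ak2, Ifit1, Ifit2, Ifit3, Xaf1 and Iigp1), the most of any alternative, none of them called. No paired analysis was possible because the exposed and control mice share no replicate numbers.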

Other observations

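Some genes outside the module, chosen after their values were seen, had groups that did not overlap while their adjusted p missed the threshold. Pml, the scaffold of nuclear bodies and both an interferon and a p53 target, was at 11.38, 11.42, 11.24 and 11.11 in the control thyroids and 11.99, 11.75, 12.09 and 11.94 in the exposed thyroids, a difference of 0.65 (95% interval 0.33 to 0.98) at an adjusted p of 0.103. It was called under 4 of 18 alternatives, at adjusted p-values of 0.0268 to 0.0349, namely the deposited values, no background correction, normexp correction and the variance trend. Ifitm3, which blocks virus entry from endosomes, was at 14.20, 14.23, 13.84 and 13.50 in the control thyroids and 14.92, 14.44, 14.49 and 14.48 in the exposed thyroids, a difference of 0.64 (95% interval 0.15 to 1.13) at an adjusted p of 0.285. Gbp6, a guanylate-binding protein gene, was at 9.37, 8.92, 8.66 and 9.33 in the control thyroids and 10.35, 10.61, 9.86 and 9.69 in the exposed thyroids. Its difference was 1.06 (95% interval 0.45 to 1.66) at an adjusted p of 0.155, opposite in sign to that of Gbp4. On the other side, Irgm2 was at 10.30, 10.61, 10.27 and 10.55 in the control thyroids and 9.89, 9.29, 9.76 and 10.15 in the exposed thyroids, a difference of -0.66 (95% interval -1.13 to -0.18), and Gbp4 at 11.07, 11.47, 10.66 and 10.87 in the control thyroids and 10.35, 9.77, 10.34 and 10.30 in the exposed thyroids, a difference of -0.83 (95% interval -1.34 to -0.31), with adjusted p-values of 0.259 and 0.193. The immunoproteasome gene Psmb8 was at 12.43, 12.57, 11.75 and 11.58 in the control thyroids and 11.26, 10.98, 11.49 and 11.27 in the exposed thyroids, highest on controls 1 and 2, with a difference of -0.83 (95% interval -1.43 to -0.24) at an adjusted p of 0.254. Over the 59 further interferon-stimulated genes, 3 had all exposed arrays above all controls (5.08%, against 5.52% of all genes) and 8 had them below (13.6%, against 6.4%).

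Irf8, which dendritic cells need and interferon gamma induces, was also chosen after its values were seen, and was at 11.76, 11.73, 11.18 and 10.78 in the control thyroids and 10.15, 9.95, 10.01 and 10.04 in the exposed thyroids. The exposed arrays were within 0.2 of each other and under all controls, with a difference of -1.33 (95% interval -1.87 to -0.78) and an adjusted p of 0.0581. It was called under 8 of 18 alternatives, at adjusted p-values of 0.0165 to 0.0466, 7 of them changes of processing and 1 the fit without control 4, and was not called when any other single array or the outlier-marked spots were left out, by the methods' t-test or without controls 1 and 2 (0.158).

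Ifna7, chosen in the same way, was not well above background on any control array and was above it on all 4 exposed arrays, at 3.62, 4.73, 3.31 and 4.59 in the control thyroids and 7.20, 4.71, 7.86 and 6.24 in the exposed thyroids. Its exposed mean was 2.29-fold higher with control signals raised to the lowest signal well above background on their arrays. That figure takes no account of the spread between mice and is not a lower limit of the change. The difference was 2.44 with the main processing, at an adjusted p of 0.206 by limma, and 1.13 with normexp correction. Ifna7 was called under 0 of 18 alternatives, and interferon alpha genes are alike in sequence. S588, at 4.71, overlapped the controls.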
